A study of Homo sapiens with 6 samples.

Results

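FOXC1, PRDM13, NR2E1, HAND1 and SOX1 are genes of developmental transcription factors at which H69 (NCI-H69), a line of small cell lung cancer (SCLC) cells, had H3K27me3 peaks while its derivative H69M had few or none. They are 5 genes, taken because the 5 highest scoring H69 H3K27me3 peaks with no H69M H3K27me3 peak within 5 kb lay at or near them. Each gene is described over a window of its hg19 span and 20 kb on each side, or 120 kb for SOX1, whose chosen peak lay far upstream. The windows held 52 of the 21638 H69 H3K27me3 peaks on chromosomes 1 to 22 and X and 2 of the 37853 in H69M, so the set was chosen on H3K27me3 and its values for that mark are a description. They held 16 of 38255 H3K27ac peaks in H69 and 22 of 51091 in H69M, a mark that did not enter the choice.

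The libraries came from H69, an established line that grows as neuroendocrine SCLC cells, and from H69M, which the labels describe as derived from H69 by a published procedure and which is known as its mesenchymal-like counterpart. The series is concerned with SCLC cells of high and low MHC class I, and these lines share 1 genetic background. Chromatin immunoprecipitation and sequencing of H3K27ac, of H3K27me3 and of an input gave 6 groups of 1 library, of which 4 have a peak list and the inputs were not analysed here. The lists hold no reads, so depth is unknown and there is no measure of spread between cultures. A difference between the lines is therefore a difference between 2 lists, with no test.

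H3K27me3 is placed by Polycomb repressive complex 2, mostly over CpG-rich ground at genes of developmental regulators, and is a mark of stable silencing. H3K27ac occupies the same lysine on active promoters and enhancers, so a single histone tail cannot carry both. Genes of lineage regulators that a cell does not use are typical Polycomb targets. The genes described here are best known from lineages other than lung epithelium, and whether H69 or H69M expresses them was not measured in these libraries. FOXC1 is a forkhead factor of mesoderm, neural crest and the anterior eye. HAND1 is a basic helix-loop-helix factor of heart and trophoblast. SOX1 is an HMG box factor of early neuroectoderm, NR2E1 (also called TLX) is an orphan nuclear receptor that maintains neural stem cells, and PRDM13 is a PR domain zinc finger protein that helps specify spinal, retinal and cerebellar neurons.

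At FOXC1, HAND1, PRDM13 and NR2E1 a peak of at least 1 list spanned the gene start. The 250 bases upstream of the RefSeq start of those genes (GRCh38.p14, 5′ to 3′ on the gene's own strand) are printed below. They describe the promoter and not the marked bases, since most H69 H3K27me3 lay outside them. The H69 H3K27me3 peak over the PRDM13 start began 0.035 kb before it. At HAND1 this mark began 0.146 kb after the start, and at FOXC1 it left the start free. Capitals mark CpG dinucleotides. HAND1 is on the minus strand and the others on the plus strand, and of the 2 starts listed for NR2E1 the upstream start is shown.
FOXC1: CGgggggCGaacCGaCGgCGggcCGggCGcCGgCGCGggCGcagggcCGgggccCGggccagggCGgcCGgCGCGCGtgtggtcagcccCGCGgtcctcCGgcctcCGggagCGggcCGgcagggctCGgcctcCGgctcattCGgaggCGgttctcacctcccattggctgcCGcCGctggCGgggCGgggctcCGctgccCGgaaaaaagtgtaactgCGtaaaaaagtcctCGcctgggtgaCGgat
HAND1: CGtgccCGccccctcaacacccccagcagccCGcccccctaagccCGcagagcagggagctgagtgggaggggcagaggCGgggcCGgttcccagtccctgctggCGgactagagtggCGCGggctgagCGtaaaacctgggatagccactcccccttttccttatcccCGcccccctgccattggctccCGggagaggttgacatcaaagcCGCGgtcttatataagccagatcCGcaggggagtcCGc
PRDM13: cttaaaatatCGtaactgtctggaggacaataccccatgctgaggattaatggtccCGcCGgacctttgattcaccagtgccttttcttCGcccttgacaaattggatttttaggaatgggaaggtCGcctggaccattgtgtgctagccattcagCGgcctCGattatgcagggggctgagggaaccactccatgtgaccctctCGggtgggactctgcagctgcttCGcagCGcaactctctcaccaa
NR2E1: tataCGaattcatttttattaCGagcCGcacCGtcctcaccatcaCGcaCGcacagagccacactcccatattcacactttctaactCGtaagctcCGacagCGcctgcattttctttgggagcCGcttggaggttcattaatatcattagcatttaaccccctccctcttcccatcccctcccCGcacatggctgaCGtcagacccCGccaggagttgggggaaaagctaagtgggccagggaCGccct

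These promoters were not alike in base composition. The FOXC1 stretch held 37 CpG and 76.8% G or C, with an observed over expected CpG ratio of 1.01, and 7.36% of the 35114 promoters in the table had a ratio at least as high. The HAND1 stretch held 16 CpG at 67.2% G or C with a ratio of 0.571. PRDM13 had 10 CpG at 52.8% with a ratio of 0.574, and NR2E1 had 14 at 53.6% with a ratio of 0.840. The SOX1 stretch, not printed because no peak of either mark lay closer than 4.37 kb to the gene start, held 31 CpG at 82% G or C and a ratio of 0.790. Over all promoters the median was 11 CpG, 58% G or C and a ratio of 0.558. FOXC1, SOX1 and HAND1 lay above the median on each measure, HAND1 only slightly so in its ratio. NR2E1 was above the median in CpG count and ratio and below it in G and C. PRDM13 was below it in CpG count and in G and C, with a ratio near the median.

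Short motifs were counted on both strands of the same 250 bases. TATAAA was found in none of the 6 stretches listed for the 5 genes and in 10.7% of all promoters. CCAAT was found 1 time each in FOXC1, PRDM13 and HAND1 and in 32.01% of all promoters. GGGCGG was found 2 times in FOXC1, 3 times in HAND1 and 1 time at the downstream NR2E1 start, against 42.6% of all promoters with at least 1. These are matches of exact letters in a short window, so a variant such as TATATAAG, near the end of the HAND1 stretch, was not counted. The RefSeq model of FOXC1 is 534 bp longer than the span used here and that of SOX1 is 450 bp longer, so the starts of the annotations may differ for these genes. For the others the lengths differ by 36 to 75 bp.

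Over the 5 windows the H3K27me3 peaks added up to 14.7 kb in the H69 list and 0.535 kb in that of H69M, and the H3K27ac peaks to 16.9 and 36.1 kb. H3K27me3 was listed in H69M at PRDM13 and SOX1, with 1 peak each, so the mark was unlisted in H69M at FOXC1, NR2E1 and HAND1 and not at all 5. With depth unknown, unlisted does not mean that the mark was absent. H3K27ac was longer in H69M at FOXC1, PRDM13 and SOX1 and shorter at NR2E1 and HAND1, where H69M minus H69 was -0.401 and -0.357 kb. The pattern at the genes was thus split, with 3 windows that held less H3K27me3 and more H3K27ac in H69M and 2 that held less H3K27me3 without more H3K27ac. Of 24418 bins of 50 kb with any H3K27ac, 78.5% had the greater covered length in H69M, and the whole H3K27ac lists came to 48.2 and 76.8 Mb in H69 and H69M. A count of 3 of 5 is therefore no sign of an excess at these genes.

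**Figure D1:**
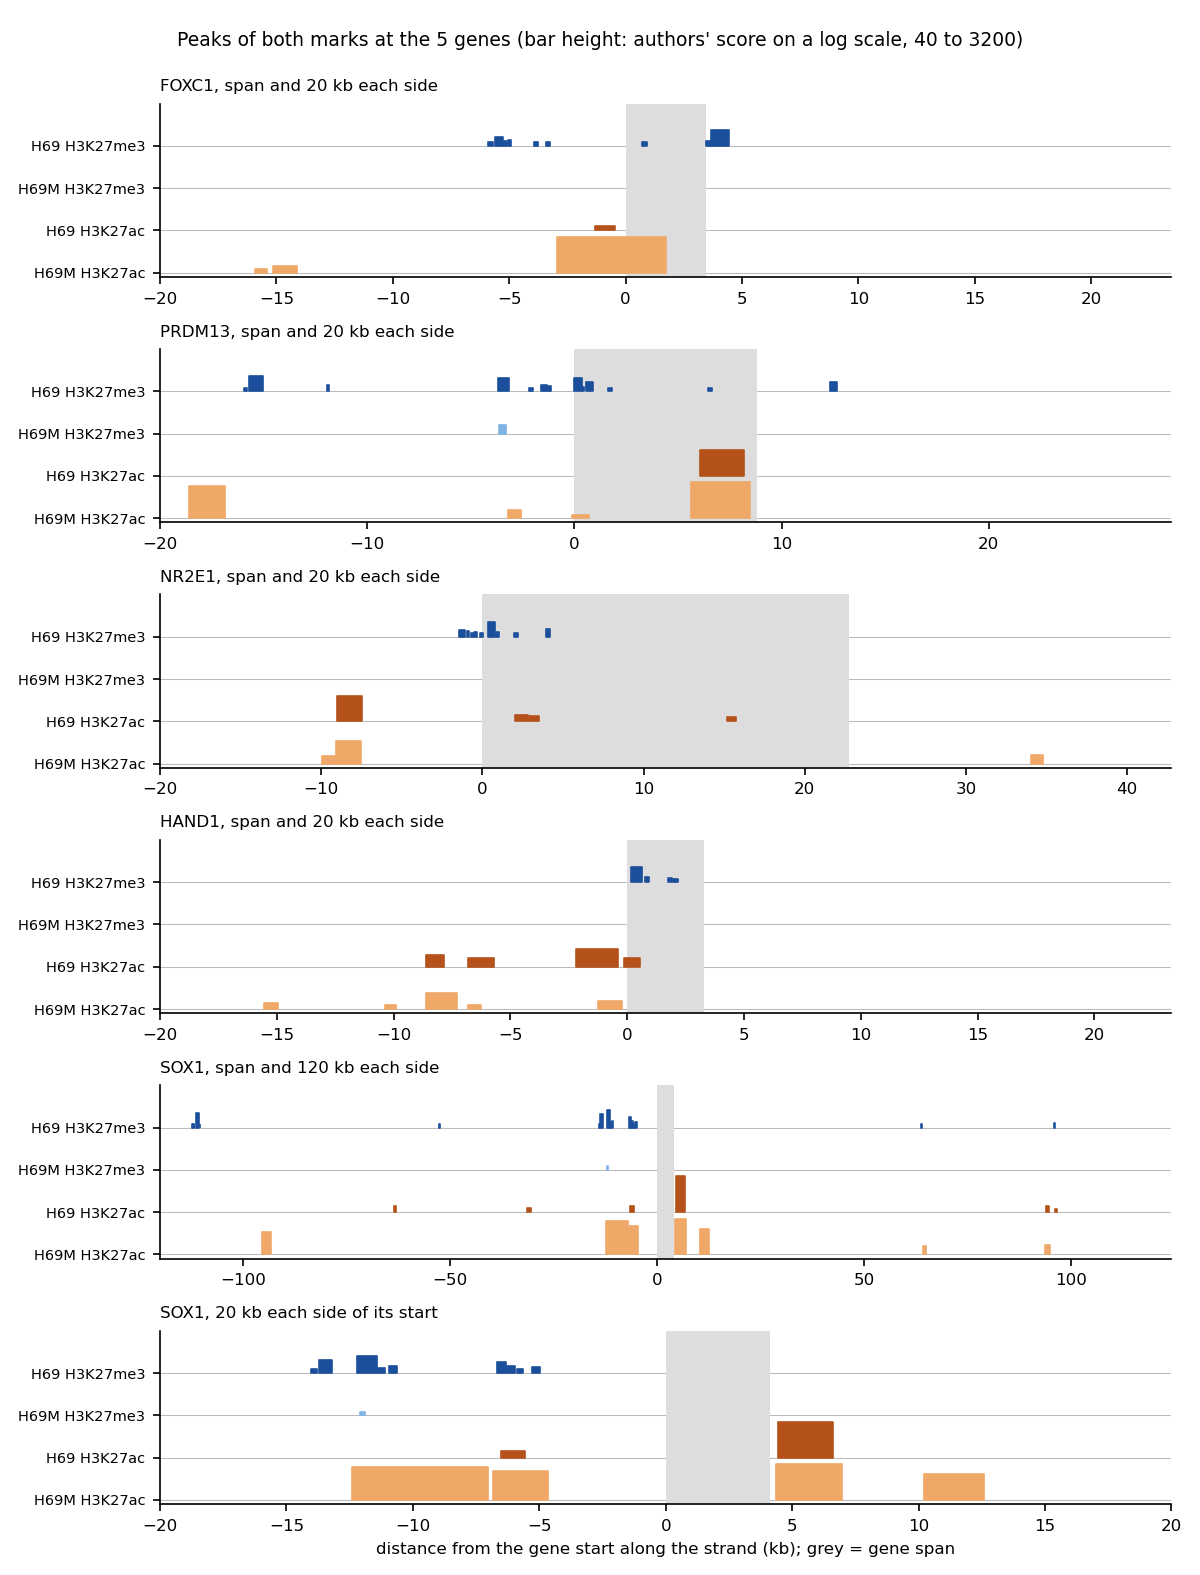
Peaks of each list by distance from the gene start in kb along the gene's strand, with the gene span in grey. Bar height is the authors' score on a log scale. The last panel enlarges the ground around SOX1. H69M H3K27me3 appears as 1 bar at PRDM13 and 1 at SOX1, and the wide H69M H3K27ac bars stand over the FOXC1 start and upstream of SOX1.

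**Figure D2:**
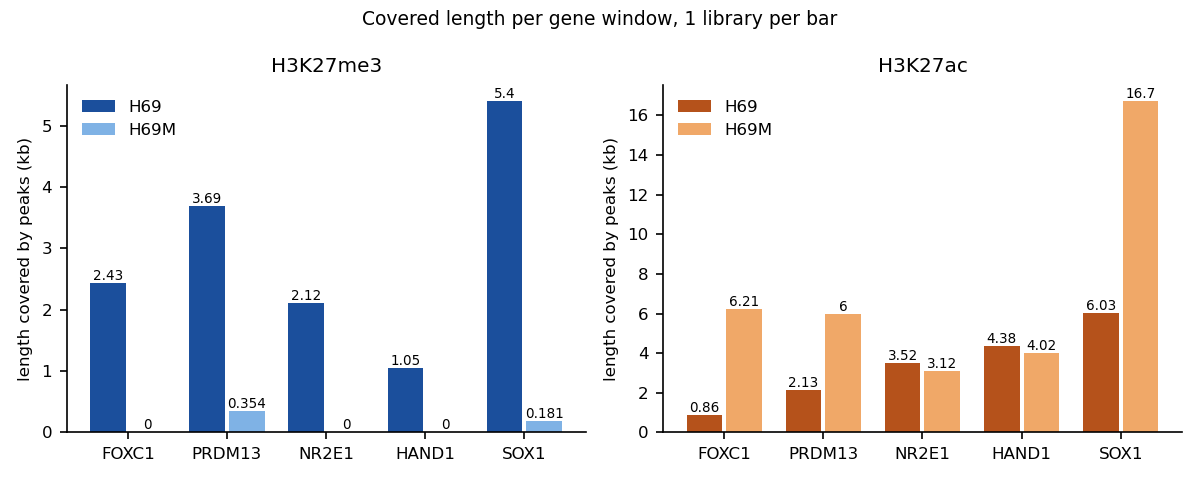
Length in kb covered by peaks in each gene window, with 1 library per bar and no error because there are no replicates. H3K27me3 was 1.05 to 5.4 kb in H69 and at most 0.354 kb in H69M, and H3K27ac was longer in H69M at FOXC1, PRDM13 and SOX1.

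Among the mesodermal regulators, FOXC1 (chromosome 6, 1610681 to 1614129, plus strand) had H3K27me3 around its start in H69 and strong H3K27ac over its start in H69M. H69 had 9 H3K27me3 peaks over 2.43 kb and H69M had none. The H69 peaks stood in 2 groups that left the start itself free. The upstream group of 6 peaks ran from 5.92 to 3.23 kb before the start, with scores of 55.3 to 115, and the other group comprised 1 peak inside the gene and 2 just past its end. The strongest, at 1614355 to 1615141, had a score of 272.6 and began 3.67 kb after the start, beyond the end of the span.

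H3K27ac at FOXC1 was 1 weak peak in H69, 860 bp wide with a score of 72.01, from 1.3 to 0.441 kb before the start. In H69M the same ground lay under a peak of 4692 bp at 1607736 to 1612427 with a score of 3100, the value at which scores pile up in the H3K27ac lists. That peak ran from 2.95 kb before to 1.75 kb after the start and so took in the promoter and the upstream part of the gene. It filled most of the gap between the 2 groups of H69 H3K27me3 peaks and overlapped 1 of the 9, the peak inside the gene (score 64.4). The strongest H69 H3K27me3 peak lay 1.93 kb outside any H69M H3K27ac. A further 2 H69M H3K27ac peaks, 15.9 to 14.1 kb upstream, were weak, with scores of 50.4 and 89.2.

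HAND1 (chromosome 5, 153854532 to 153857824, minus strand) had the shortest H3K27me3 of the genes. H69 had 4 peaks over 1.05 kb, all inside the gene between 0.146 and 2.18 kb after its start, and H69M had none. The strongest, at 153857205 to 153857678 with a score of 245.5, began 146 bases after the start, and the other 3 had scores of 55.8 to 78.7. HAND1 was the gene at which the strongest H3K27me3 peak of H69 shared its ground with H3K27ac of H69 itself. An H69 H3K27ac peak of 710 bp with a score of 113.6 ran from 0.16 kb before to 0.549 kb after the start and covered 38.5% of the HAND1 H3K27me3 bases. A peak list cannot tell whether both marks lay on the same alleles or in different cells of the culture.

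In H69M no H3K27ac peak spanned the HAND1 start. The nearest lay 0.215 to 1.24 kb upstream with a score of 110.9, where H69 had its strongest HAND1 H3K27ac peak, 1793 bp wide with a score of 345.7. Farther upstream, H69M had a peak of 1360 bp (score 274.5) that overlapped an H69 peak of 779 bp (score 173.2) 8.63 to 7.27 kb before the start. In all, H3K27ac came to 4.38 and 4.02 kb in H69 and H69M, with 4 and 5 peaks, and 3 of the peaks of each line overlapped a peak of the other. The difference, H69M minus H69, was -0.357 kb over all peaks, -1.324 kb in a window of 10 kb on each side, and -1.993 kb when peaks with a score under 100 were left out or equal numbers of peaks were taken. HAND1 thus had H3K27ac over its start in H69 but not in H69M, with H3K27ac close upstream in both lines. No H3K27me3 peak spanned the start in either line, and H69 alone had such peaks just after it.

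Among the neural regulators, SOX1 (chromosome 13, 112721913 to 112726020, plus strand) had the greatest length of H3K27me3 in H69 and of H3K27ac in both lines. Its window was 244 kb against 43.3 to 62.8 kb at the others. As a share of the window, H69 H3K27me3 was lowest at SOX1, at 2.21%. H69 had 17 H3K27me3 peaks over 5.40 kb, of which 15 lay upstream, 2 downstream and none in the gene. The peak for which SOX1 was taken, at 112610641 to 112611386 with a score of 244.3, lay 111 kb before the start in a group of 5. Its distance makes SOX1 a label of the neighbourhood more than the known owner of the peak. In the gene table the lncRNA SOX1-OT overlaps SOX1.

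A group of H69 H3K27me3 peaks closer to SOX1 was stronger. It comprised 9 peaks from 14.02 to 4.96 kb upstream, among them the peak with the highest score of all 52, 337.7 at 112709711 to 112710482. At this peak the mark was listed in H69M as well, as a peak of 181 bp with a score of 60.9 at 112709823 to 112710003, inside the H69 peak. The others of note in the group had scores of 201.6 and 146.1, and all 9 lay within 6.62 kb of the H69M peak.

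H3K27ac stood over most of this group in H69M. A peak of 5386 bp (score 2249) ran from 12.4 to 7.03 kb upstream and a peak of 2171 bp (score 1334) from 6.81 to 4.64 kb upstream. H69 had 954 bp of H3K27ac there with a score of 87.9, from 6.52 to 5.57 kb upstream. The H69M peaks overlapped 7 of the 17 H69 H3K27me3 peaks and covered 48.9% of their bases, including the peak with the score of 337.7. The H69M H3K27me3 peak lay wholly under the wider of them, so both marks were listed on the same ground in H69M.

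Just past the SOX1 gene, 4.37 to 6.96 kb after its start, both lines had strong H3K27ac. The H69 peak was 2167 bp wide with a score of 3194, which ranked 49 among the 38255 H3K27ac peaks of H69. The H69M peak was 2593 bp wide with a score of 3100, the value at which scores pile up, so the scores of the lines were not ordered. H69M had further peaks with no overlapping H69 peak at 10.2 to 12.6 kb after the start (score 891.1) and at 95.4 to 93.2 kb before it (score 654.4). Over the window H3K27ac came to 6.03 and 16.7 kb in H69 and H69M. SOX1 therefore carried active chromatin past its end in both lines, with H3K27me3 upstream in H69 and mainly H3K27ac upstream in H69M.

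PRDM13 (chromosome 6, 100054650 to 100063454, plus strand) had 13 H3K27me3 peaks over 3.69 kb in H69, spread from 15.9 kb before to 12.7 kb after the start. The strongest, at 100038941 to 100039618 (score 258.3), began 15.7 kb upstream. A peak with a score of 208.9 lay 3.67 to 3.16 kb upstream, and a peak of 386 bp with a score of 191.4 spanned the start. The last is the highest score among the 2 H69 H3K27me3 peaks that spanned a gene start, the other being at NR2E1.

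H69M had 1 listed H3K27me3 peak at PRDM13, of 354 bp with a score of 112.5, at 100050994 to 100051347. It lay inside the H69 peak with the score of 208.9, and 8 of the 13 H69 peaks were within 5 kb of it. The remaining 5, with the strongest among them, had no H69M peak within that distance.

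H3K27ac at PRDM13 lay toward the end of the gene in both lines. H69 had 1 peak of 2129 bp (score 923.3) from 6.07 to 8.19 kb after the start, and H69M had a peak of 2842 bp (score 3100) over the same ground. H69M had 3 further peaks with no H69 H3K27ac peak overlapping them. A weak peak of 842 bp with a score of 59.2 spanned the start, over the H69 H3K27me3 there. Another of 613 bp (score 106.3) stood next to the H69M H3K27me3 peak, from 3.2 to 2.59 kb upstream. The strongest of the 3, of 1706 bp with a score of 2077, lay 18.6 to 16.9 kb upstream and ended 1.17 kb before the strongest H69 H3K27me3 peak. H3K27ac came to 2.13 and 6.003 kb in H69 and H69M, and the H69M peaks overlapped 5 of the 13 H69 H3K27me3 peaks and 23.7% of their bases.

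NR2E1 (chromosome 6, 108487262 to 108510013, plus strand) had its H3K27me3 close around the start, with 9 H69 peaks over 2.12 kb between 1.42 kb before and 4.2 kb after the start. The strongest, at 108487609 to 108488031, had a score of 240.5 and began 347 bases after the start. A peak of 182 bp with a score of 62.9 spanned the start, and the scores of the 9 had a median of 69.6. H69M had no H3K27me3 peak in the window, and the nearest lay 1.68 Mb from the strongest H69 peak.

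No H3K27ac was listed in H69M on this ground. The nearest H69M H3K27ac peak to the NR2E1 start, 1561 bp wide with a score of 609.9, ended 7.52 kb upstream of it and overlapped an H69 peak of 1522 bp with a score of 852.4. H69 had 3 weak H3K27ac peaks inside the gene, with scores of 67.01 to 82.7, that had no overlapping H69M peak, and 1 of them overlapped an H69 H3K27me3 peak. H3K27ac came to 3.525 and 3.12 kb in H69 and H69M. This order turned around when peaks with a score under 100 were left out, with 1.6 kb more in H69M, and with 50 kb on each side, with 0.536 kb more in H69M, so H3K27ac of the lines cannot be ordered at NR2E1.

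The members differed in where H3K27me3 lay. Of the 52 H69 peaks 32 were upstream of the gene, 2 spanned its start, 13 were inside it and 5 past its end. Most were weak, with 39 under a score of 100, and the median of 75.2 stood beside 66.9 over the whole H69 list. The median width was 216 bp, beside 185 bp over the list. FOXC1, NR2E1 and HAND1 each had 1 peak with a score of 200 or more, while PRDM13 had 2 and SOX1 had 3. The 5 chosen peaks ranked from 334 (FOXC1) to 423 (NR2E1) among the 21638, so none belonged to the strongest 1% of the H69 list.

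Missing counterparts were common for weak peaks and rare for strong ones across the whole list. Of all H69 H3K27me3 peaks, 29.8% had no H69M H3K27me3 peak within 5 kb, and among those with a score of 240 or more it was 5 of 428, or 1.17%. Those 5 are the chosen peaks themselves, and the limit of 240 lies just under the lowest of them, so this count follows from the choice. Just below them stood peaks at chromosome 5 78365262 to 78365699 (score 239.9) and chromosome 19 5339621 to 5339980 (score 238.9). Of the 52 H69 peaks in the windows 39 had no counterpart, or 75%, a share the choice of the windows fixes and from which nothing is read. Of 270 H69 peaks with a score of 300 or more, none was without a counterpart, and a count of 0 allows a share of up to 1.36% by the exact interval.

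**Figure D3:**
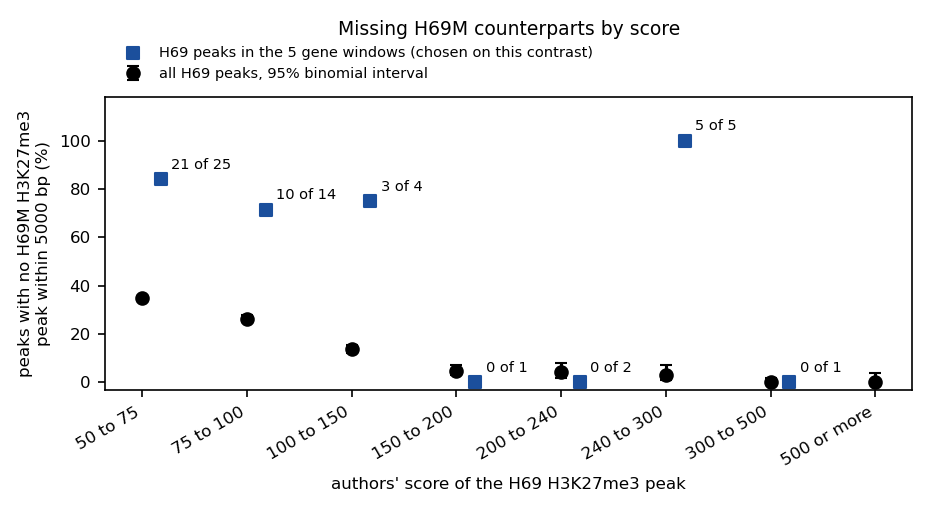
Percent of H69 H3K27me3 peaks with no H69M H3K27me3 peak within 5000 bp, by the authors' score, with exact 95% binomial intervals for counting error over all peaks (black) and the peaks of the 5 windows (squares). Over all peaks the share goes from 35.1% at scores of 50 to 75 to 0% at 300 or more, and the 5 window peaks at 240 to 300 are the chosen ones.

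H3K27ac over the ground of the H69 H3K27me3 peaks did not enter the choice. Of the 52 H69 peaks, 13 overlapped H69M H3K27ac (25%, exact 95% interval 14.03 to 38.9), beside 4.63% of all H69 H3K27me3 peaks and 12.3% of those with a score of 200 or more. All 13 lay at SOX1 (7), PRDM13 (5) and FOXC1 (1), and peaks of a window are neighbours on the same ground, so the interval is too narrow. Of the same 52, 7 overlapped H3K27ac of H69 itself (13.5%, 5.59 to 25.8), beside 1.87% of all H69 H3K27me3 peaks. In bases, 25.5% of the H69 H3K27me3 of the windows lay under H69M H3K27ac and 11.1% under H69 H3K27ac, against 4.82% and 1.85% over the list.

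The H3K27ac of H69M did not lie on the chosen peaks, and its distance from them varied widely. None of the 5 overlapped H69M H3K27ac, and the nearest H69M H3K27ac peak was 0.36 kb away at HAND1, 1.17 kb at PRDM13, 1.93 kb at FOXC1, 7.87 kb at NR2E1 and 15.2 kb at SOX1. In H69 1 of the 5, at HAND1, overlapped H3K27ac. Of the 13 H69 H3K27me3 peaks that did lie under H69M H3K27ac, 5 had a score of 100 or more, at PRDM13 and SOX1. Of the 22 H69M H3K27ac peaks in the windows 13 had no overlapping H69 peak (59.1%), beside 48.4% of the H69M list, and of the 16 H69 peaks 7 had no overlapping H69M peak (43.8%, called missing in 22.5% of the H69 list).

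**Figure D4:**
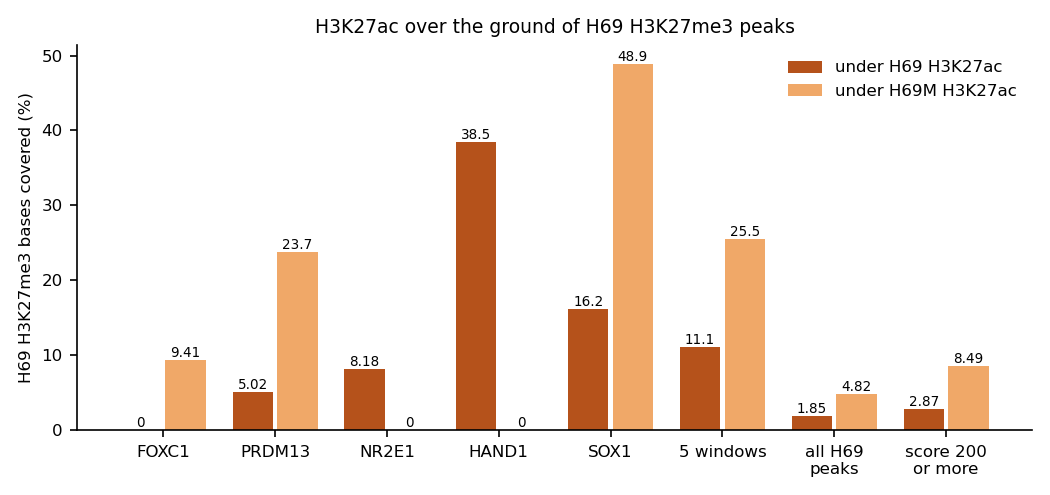
Percent of H69 H3K27me3 bases covered by H3K27ac of H69 and of H69M, per gene, over the 5 windows and over the whole H69 list. H69M H3K27ac covers 48.9% at SOX1 and 23.7% at PRDM13 and none at NR2E1 and HAND1, where H69 H3K27ac covers 8.18% and 38.5%.

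The surroundings differed from gene to gene. FOXC1 lay beside H3K27me3 listed in both lines, with 53 peaks in H69 and 43 in H69M within 500 kb of the gene outside its window. The nearest protein-coding neighbours in RefSeq are FOXF2, another forkhead gene, and GMDS. All of these peaks lay on the FOXF2 side. On the GMDS side the next H3K27me3 peaks were 772 kb (H69) and 758 kb (H69M) beyond the window. The nearest H69M H3K27me3 peak was 31.8 kb beyond the window. In the same table PRDM13 lies between CCNC and MCHR2, NR2E1 between OSTM1 and SNX3, HAND1 between SAP30L and LARP1, and SOX1 between LOC107983958 and SPACA7. At these genes the flanks held less of the mark in H69M as well, with 20 and 8 peaks at HAND1, 17 and 3 at SOX1, 7 and 0 at PRDM13 and 4 and 0 at NR2E1. Just outside the windows, the closest H69 H3K27me3 peaks lay 2.63 kb away at SOX1 (score 55.8), 9.04 kb at FOXC1 (55.8), 10.7 kb at PRDM13 (54.7), 26.5 kb at NR2E1 (104.2) and 40.4 kb at HAND1 (65.8). H3K27ac was listed in both lines in every flank, from 3.17 kb at FOXC1 to 31.3 kb at SOX1 in H69 and from 8.94 kb at FOXC1 to 48.03 kb at SOX1 in H69M.

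PRDM13 and NR2E1 shared a stretch of chromosome 6 that was poor in H69M H3K27me3, a stretch chosen after the lists were seen. Its ends were set at H69M H3K27me3 peaks that bound the empty ground around the 2 genes, so a low H69M count there is built in and nothing is read from it. From 91.5 to 117.3 Mb H69 had 61 H3K27me3 peaks and H69M had 5, while H3K27ac peaks numbered 218 and 341. Outside the windows of PRDM13 and NR2E1 the H3K27me3 counts there were 39 and 4. The rest of chromosome 6 held 1230 H3K27me3 peaks in H69 and 1339 in H69M. Chromosome 6 as a whole, with FOXC1 on its other arm, had 45.0% of its H69 peaks without a counterpart, against 45.7% on chromosome 5, 24.4% on chromosome 13 and 29.8% over all. The part of this regional difference in the values at PRDM13 and NR2E1 was not tested.

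**Figure D5:**
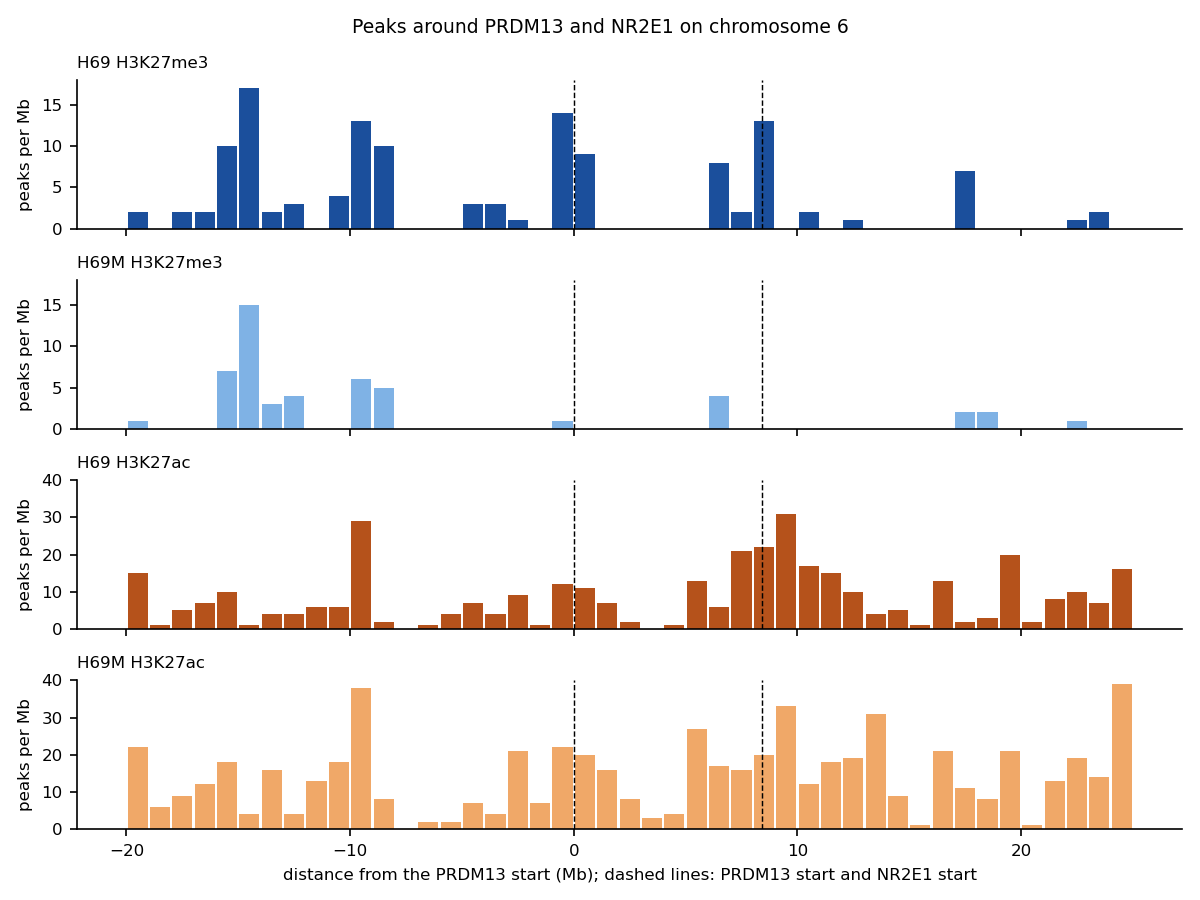
Peaks per 1 Mb bin on chromosome 6 by distance from the PRDM13 start, with dashed lines at the PRDM13 and NR2E1 starts. H69 H3K27me3 has bars at both genes, H69M H3K27me3 has 1 peak near PRDM13 and none at NR2E1, and H3K27ac bars of both lines continue through the region.

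Both H69M peak lists are longer overall than those of H69, with H3K27me3 over 4.91 and 7.96 Mb in H69 and H69M. On chromosome 6, which holds FOXC1, PRDM13 and NR2E1, the H69M H3K27me3 was the shorter, with 283 and 239 kb. It was 262 and 287 kb on chromosome 5, which holds HAND1, and 120 and 228 kb on chromosome 13, which holds SOX1. The lower H3K27me3 in H69M at the genes follows from their choice. It ran with the chromosome total at FOXC1, PRDM13 and NR2E1 and against it at HAND1 and SOX1, and nothing is read from this. Of 1255 bins of 50 kb with at least 1000 bp of H69 H3K27me3, 3.43% had none in H69M. Of these 43 bins 29 had H3K27ac in either line, and in 23 of the 29 the H3K27ac was longer in H69M (79.3%, exact 95% interval 60.3 to 92.01), beside 78.5% of all bins with H3K27ac. The other 14 bins had no H3K27ac in either line.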

How the data were processed

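H3K27ac and H3K27me3 peaks of H69 and H69M were analysed, with 1 library per line and mark. Bowtie2 and SAMtools 0.1.19 and the build hg19 are named in the submitters' processing notes. The peak names carry the word MACS, per the deposited files, with the MACS version, settings and any use of the input not given in the sources used here. The deposited score of each peak is the authors' own, starts at about 50 and is not defined, so it was used to describe and filter peaks within a list. Lists of different depth may not share its meaning.

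Gene spans and windows were given with the choice of the genes, and the members, lists and thresholds were chosen with earlier results of these data known. Named were the 5 genes, their nearest protein-coding neighbours, the highest peak per window and list, peaks over gene starts, all H69M H3K27me3 peaks and the nearest H69 H3K27me3 peaks outside; others were chosen after their values were seen. Peaks on chromosomes 1 to 22 and X were compared in Python 3.11.15 with pandas 2.3.3 and SciPy 1.17.1, by overlap of at least 1 bp or a gap of at most 5 kb. The gap and length functions were tested on simulated data. Shares carry exact (Clopper-Pearson) 95% intervals, which cover counting error only. RefSeq promoter sequences (GRCh38.p14) matched all 5 genes, and no GRCh38 coordinate was used. The closing part gives the alternatives: other windows, a score minimum, equal numbers of peaks and other distances.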

Additional observations from a re-analysis of the deposited data

How the results depend on the processing

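No paired analysis was possible because each group has 1 library and no result comes from a test. The depth of the libraries is unknown, which limits every absent peak to "not listed". H69 H3K27me3 peaks of the windows without an H69M counterpart numbered 39 of 52 and stayed at 30 to 50 with other windows, distances and equal numbers of peaks. They were 10 of 13 when a score of 100 or more was asked of the peaks of both lines. H69M H3K27me3 peaks in the windows numbered 2 with every window size and 1 with a score of 100 or more (PRDM13 left) or with equal numbers of peaks, which take the highest 21638 H69M peaks, down to a score of 61.5. H3K27ac over the windows came to 15.01 and 27.01 kb (H69 and H69M) with halved windows, 25.7 and 46.4 kb with 50 kb windows, 14.01 and 31.9 kb with 20 kb for all 5 genes, and 10.2 and 32.1 kb with a score of 100 or more. With equal numbers of peaks it covered 16.9 and 32.1 kb. The share of all H69 H3K27me3 peaks without a counterpart was 67.4% when counted by overlap, 17.05% within 20 kb and 39.8% with equal numbers of peaks. It was 9.78% when a score of 100 or more was asked of the H69 peaks alone. That share is not comparable with the 10 of 13, for which weak H69M peaks were left out too. Per gene, the sign of the difference between the lines held in all 25 alternative values for H3K27me3 and in 23 of 25 for H3K27ac. The genes were chosen on H3K27me3, so the constant sign for that mark, like its counts above, follows largely from the choice. At HAND1 the H3K27ac difference went from -0.357 kb to -1.993 kb with a score of 100 or more and with equal numbers of peaks. The exceptions in sign were at NR2E1, where H69M minus H69 was -0.401 kb, 0.536 kb with 50 kb windows and 1.602 kb with a score of 100 or more. The cause was not tested.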
